A study of Mus musculus with 2 samples.

Results

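Small leucine-rich proteoglycans are secreted matrix proteins built from leucine-rich repeats. The 10 genes followed here, Bgn, Dcn, Aspn, Lum, Fmod, Prelp, Omd, Ogn, Epyc and Chad, were chosen by name among the gene spots present in both scanner tables, with Epyc read under its older name Dspg3. All 10 were found, on 13 probes, among 22811 genes that could be compared. All 13 probes were well above background in both pools on both arrays, so no member was lost to the filter on dim probes.

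The samples were 2 pools of aortic RNA from the same 6 apoE-/- mice (3 males and 3 females, 16 weeks old), which lack apolipoprotein E and develop atherosclerosis. The arch pool, from the atherosclerosis-prone part, took in the root and arch of the aorta together with 2 mm of adjoining thoracic vessel. The thoracic pool, from the resistant part, held the 6 mm that followed. Both pools carry the same mutation, no pool of another genotype was compared, and both vessels had been perfused with Triton X-100, a detergent meant to strip the endothelium, because smooth muscle was the cell type of interest. Each of 2 arrays compared arch with thoracic RNA in competing dyes, with arch in Cy3 on array 1 and in Cy5 on array 2. As both arrays measured the same 2 pools they count as 1 replicate. Each ± gives the technical SD from array to array (n = 2), the spread between mice was not measured, and no p-value is given. In such bulk RNA, fewer cells of a type and less RNA per cell cannot be told apart.

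In the vessel wall these proteins coat collagen fibrils and set their diameter and spacing. Many carry chondroitin, dermatan or keratan sulfate chains, through which biglycan in particular is known to bind lipoproteins that contain apolipoprotein B. Several also hold growth factors of the TGF-beta family in the matrix, and soluble biglycan and decorin can signal through Toll-like receptors. The family is divided into classes by the spacing of cysteines ahead of the repeats and by gene structure: Bgn, Dcn and Aspn are of class I, Lum, Fmod, Prelp and Omd of class II, Ogn and Epyc of class III and Chad of class IV.

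The members did not move as a block. Epyc and Lum were higher in the arch pool, by 4.99-fold and 2.07-fold. Bgn and Prelp stood at 1.56-fold and 1.45-fold in the same direction. Fmod, Omd and Ogn gave values on the thoracic side, of 1.25-fold, 1.16-fold and 1.12-fold, Aspn stood slightly on the arch side, Chad gave equal signals and the ratio of Dcn could not be measured. A gene was called when its mean difference was at least 2-fold and both arrays separately showed 1.5-fold or more with one sign. By that rule 2 of the 10 members were higher in the arch pool, where 0.473% of all genes were, and 0 of 10 were higher in the thoracic pool, where 0.145% of all genes were. Applied to red over green in place of arch over thoracic, which counts dye bias, the rule was passed by 0 of 22811 genes. A call at 1.5-fold on each array, added after the values were seen, took in 3 members on the arch side (Epyc, Lum and Bgn) against 1.2% of all genes, and 0 members on the thoracic side against 0.386%. The median log2 ratio was 0.25 over the 10 members and 0.25 over the 9 with a measured ratio, beside -0.01 over all genes. In the deposited log ratios the same counts of members passed, 2 on the arch side against 1.02% of all genes and 0 on the thoracic side against 0.338%, and 3 at 1.5-fold on each array against 2.31%.

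**Figure D1:**
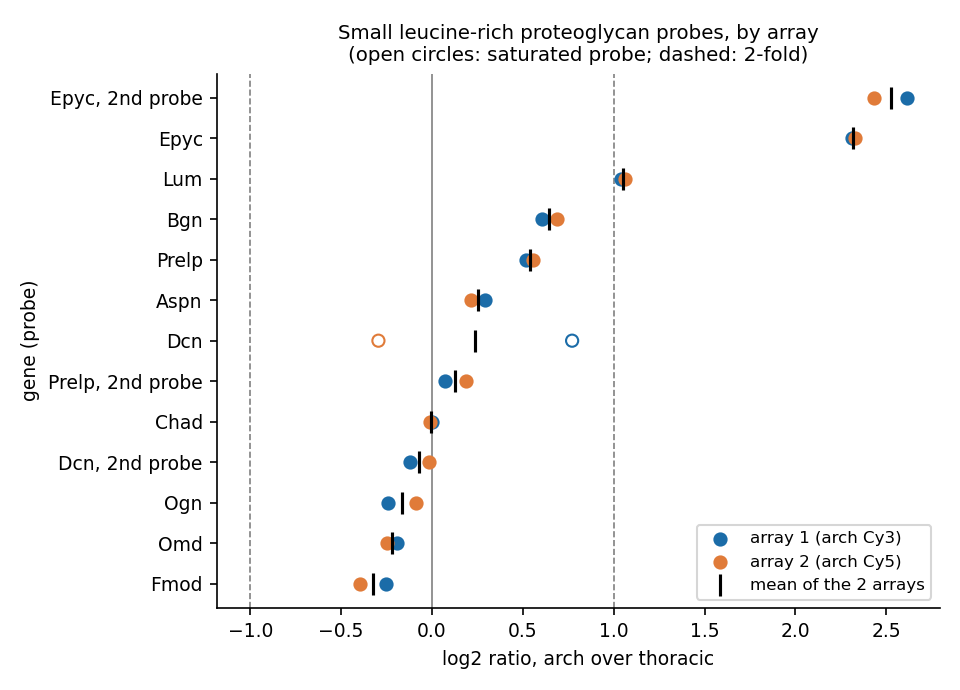
Log2 ratio of arch over thoracic (horizontal axis) for each of the 13 probes of the 10 genes (vertical axis), with 1 circle per array, a bar at the mean of both arrays, open circles for the saturated Dcn probe and dashed lines at 2-fold. The Epyc probes lie highest, at 2.31 to 2.61, Lum lies at 1.04 and 1.06, and Fmod lies lowest at -0.25 and -0.40.

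Epyc encodes epiphycan, a small dermatan sulfate proteoglycan best known from growth-plate cartilage. Its brighter probe had normalised signals (intensity after background correction and dye normalisation) of 958 and 952 in the arch pool on arrays 1 and 2, and of 193 and 190.0 in the thoracic pool. The pools did not overlap, and the arch signal was the higher one under either dye. The log2 ratios were 2.31 and 2.33, with a mean of 2.32 ± 0.01, and 4 of 22811 genes had a higher ratio. The second probe of the gene read 717.5 and 693 in the arch pool against 117 and 128 in the thoracic pool, for a log2 ratio of 2.52 ± 0.13. Both probes thus placed the gene on the arch side by more than 4-fold. The negative control spots, which match no mouse transcript, averaged 56.3 to 59.7 on the same scale, so the thoracic signal of Epyc was above them but close enough for the added offset of 50 to narrow the ratio. With no offset the brighter probe gave 2.67 and the second 3.17, and in the deposited log ratios they gave 2.73 and 3.26.

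The RefSeq table used here (build GRCm38.p6) lists 2 starts for Epyc, and the 250 bases before each are shown because this gene carries the largest difference of the family. Capitals mark matches to any of 4 motifs, searched on both strands: the TATA box (TATAAA), the AP-1 site (TGANTCA), a core read by SOX factors (ACAAT) and a SMAD box (CAGAC). The first start held 2 matches to ACAAT and the second held 3, each on the opposite strand, where they read ATTGT, and none of the other 3 motifs.
Epyc, first start (chr10:97643818-97644067, plus strand): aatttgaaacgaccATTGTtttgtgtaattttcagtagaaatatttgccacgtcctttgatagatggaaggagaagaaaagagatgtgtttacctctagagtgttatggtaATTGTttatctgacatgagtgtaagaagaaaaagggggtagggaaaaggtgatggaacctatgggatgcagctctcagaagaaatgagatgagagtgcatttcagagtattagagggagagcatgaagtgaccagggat
Epyc, second start (chr10:97646853-97647102, plus strand): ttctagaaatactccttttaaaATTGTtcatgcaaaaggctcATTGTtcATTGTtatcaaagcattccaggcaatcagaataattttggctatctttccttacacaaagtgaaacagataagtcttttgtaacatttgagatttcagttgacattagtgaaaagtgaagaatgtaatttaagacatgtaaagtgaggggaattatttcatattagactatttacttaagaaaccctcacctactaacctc

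Over all 32851 starts listed, a share of 27.7% held ACAAT within the same 250 bases, 42.2% held CAGAC, 12.4% held TATAAA and 6.75% held TGANTCA. Of the 9 starts listed for 8 of the members, 5 held ACAAT, 3 held TATAAA, 2 held CAGAC and 0 held TGANTCA. The TATAAA matches began 178 to 229 bases before the start at Aspn and Ogn, on either strand. That of Chad began 28 bases before the start, on the same strand. The upstream bases were rich in A and T at Epyc, with a GC content of 39.2% and 31.2%, beside a median of 52.4% over all starts. These are matches of letters only, and no binding was measured.

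Lum encodes lumican, a keratan sulfate proteoglycan that spaces collagen fibrils and is made mainly by fibroblasts. It read 35933 and 36501 in the arch pool and 17456 and 17473 in the thoracic pool. Both arch values lay far above both thoracic values, and no pixel of the spot was saturated. Its log2 ratio was 1.05 ± 0.02 (2.07-fold), with 93 genes higher. This was the one call among the members that lay at the limit: with median centring in place of loess it was 0.84, under the limit. With no offset it was 1.03, and without background subtraction or in the deposited log ratios 1.04. The remaining alternatives gave the same mean again or the value of a single array.

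Prelp, a class II protein with a basic end that binds heparan sulfate and links basement membrane to collagen, read 11021 and 11352 in the arch pool and 7685 and 7717 in the thoracic pool. The pools did not overlap, but the log2 ratio of 0.54 ± 0.03 was under 1.5-fold. Its second probe was dim, at 159 and 163 against 151 and 144, and gave 0.13 ± 0.08. The median of both probes was 0.33.

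Fmod, fibromodulin, which shares binding sites on collagen with lumican, read 1183 and 1167 in the arch pool and 1407 and 1536 in the thoracic pool. Each thoracic value lay above both arch values, on either dye. The log2 ratio of -0.32 ± 0.10 was the lowest of the family, and 529 of 22811 genes had a lower one, although it was a difference of 1.25-fold. Omd, osteomodulin, a keratan sulfate proteoglycan of mineralised tissue, read 3551 and 3513 in the arch pool against 4052 and 4175 in the thoracic pool. It too was higher in the thoracic pool on both arrays, with a log2 ratio of -0.22 ± 0.04. Within class II, then, Lum and Prelp lay on one side and Fmod and Omd on the other, with no overlap between the arrays of Prelp (0.52 and 0.56) and those of Omd (-0.19 and -0.25).

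Bgn, biglycan, the class I proteoglycan most often tied to lipoprotein retention in the intima, read 1387 and 1319 in the arch pool and 913 and 819 in the thoracic pool. The lowest arch value exceeded the highest thoracic value. The log2 ratio was 0.65 ± 0.06 (1.56-fold), with 259 genes higher. Single arrays gave 0.60 and 0.69, and the alternatives that could alter the mean otherwise gave 0.62 (median centring) to 0.67 (deposited log ratios). It reached 1.5-fold on each array but not 2-fold, and without background subtraction or with median centring it missed 1.5-fold on an array.

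Aspn, asporin, a class I protein without the usual attachment site for a sugar chain and an inhibitor of TGF-beta, read 3646 and 3640.1 in the arch pool and 2977 and 3142 in the thoracic pool. Its log2 ratio was 0.25 ± 0.06, a difference of 1.19-fold. A further probe that the array describes as an asporin clone carries an accession in place of a gene name, falls outside the choice of members and was not used.

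Dcn, decorin, the class I proteoglycan that winds around collagen fibrils and binds TGF-beta, was too bright for the scanner. Its probe had unnormalised mean signals of 64502.5 in the arch pool on array 1 and 65292.8 on array 2, and of 65292.9 and 65327.8 in the thoracic pool. In the thoracic pool 30 of 30 pixels and 32 of 32 pixels were saturated, in the arch pool 3 of 30 and 32 of 32. The arrays gave log2 ratios of 0.77 and -0.29, close to those of the saturated probe for the smooth muscle actin gene Acta2 (0.79 and -0.29), so the difference between pools was not measured and no fold is given. A second Dcn probe, designed on a neonatal kidney clone, was dim (110.5 and 114 in the arch pool against 120.1 and 116 in the thoracic pool) and gave -0.07 ± 0.07. The sign of Dcn changed between ways of processing, with values from -0.29 to 0.77, and no direction is drawn from it.

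Ogn, osteoglycin or mimecan, a class III protein abundant in the arterial adventitia and media, read 17833 and 16968 in the arch pool and 21082 and 17998 in the thoracic pool. The thoracic value was higher on each array, by log2 ratios of -0.24 and -0.09, for a mean of -0.16 ± 0.11. Both class III genes were thus measured well above background, Epyc on the arch side and Ogn slightly on the thoracic side. Chad, chondroadherin, a class IV protein of cartilage that carries no long sugar chain and binds integrins, read 209.9 and 213 in the arch pool and 209.6 and 215 in the thoracic pool. Its log2 ratio was -0.01 ± 0.01, so the pools overlapped.

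**Figure D2:**
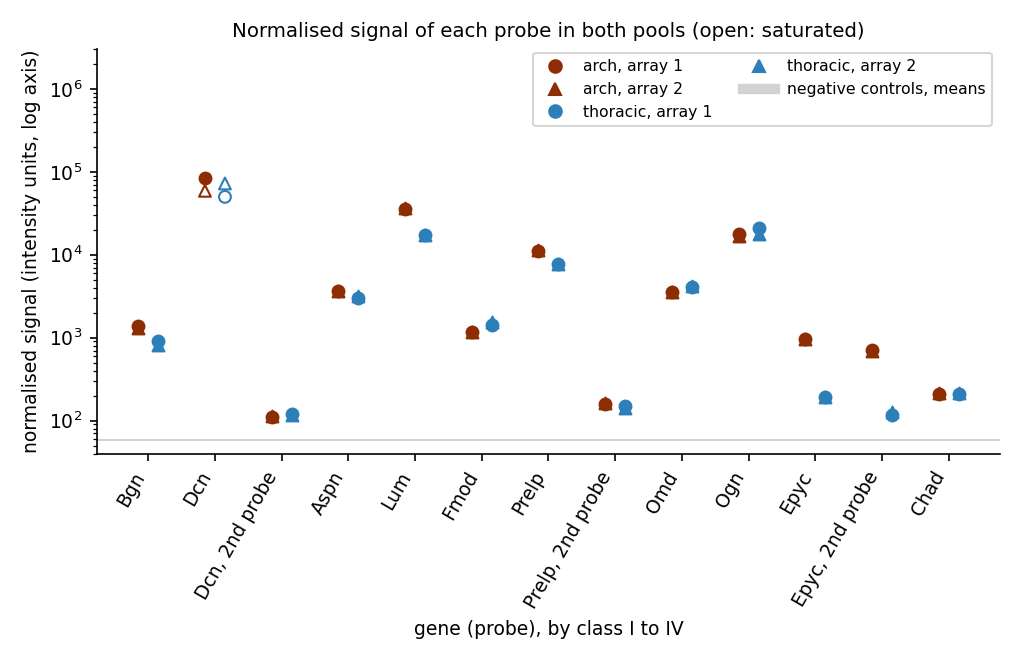
Normalised signal in intensity units on a log axis (vertical) for each of the 13 probes (horizontal, ordered by class), with arch in brown and thoracic in blue, circles for array 1 and triangles for array 2, open symbols for saturated spots and a grey band for the means of the negative controls (56.3 to 59.7). The pools stand apart at both Epyc probes and at Lum, coincide at Chad, and Dcn sits at the scanner's ceiling. Heights of different probes are not comparable as expression.

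Ordered by ratio, the 9 measured members ran Epyc, Lum, Bgn, Prelp, Aspn, Chad, Ogn, Omd and Fmod. The step from Epyc to Lum was the widest of the 8, at 1.27 between means, followed by Lum to Bgn at 0.41. Ogn and Omd could not be ordered, as their arrays overlapped. The arrays of Omd and Fmod were separated by 0.00, those of Bgn and Prelp by 0.05 and those of Chad and Ogn by 0.07, less than the largest SD between arrays among these 9 members (0.11). Of the 9, 5 were above 0 on both arrays (Epyc, Lum, Bgn, Prelp, Aspn) and 3 below 0 on both (Fmod, Omd, Ogn). For these 8 genes the signs of the means also held with no offset, without background subtraction, in the deposited log ratios and with median centring. Leaving out an array could not change them. Dropping the dim-probe filter or the saturated probes left the 8 values as they were, and the median over probes altered only Epyc and Prelp. On single arrays without loess, Ogn gave -0.83 and 0.11 and Aspn -0.10 and 0.44.

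**Figure D3:**
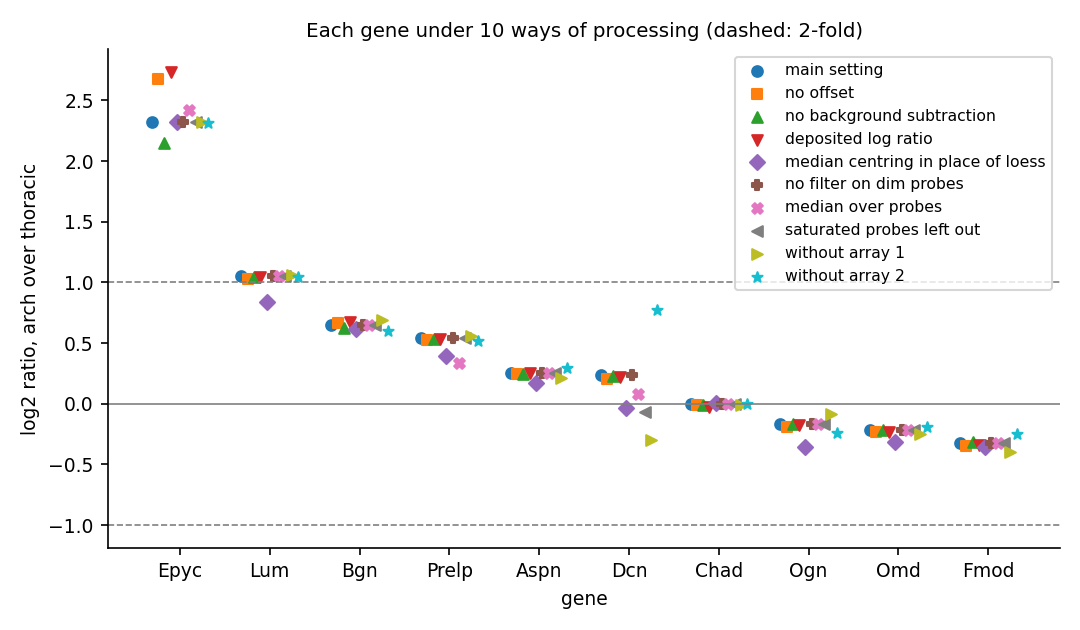
Log2 ratio of arch over thoracic (vertical axis) for each gene (horizontal axis) under the main setting and 9 alternatives, 1 symbol per setting, with dashed lines at 2-fold. Epyc stays between 2.15 and 2.73 and Bgn between 0.60 and 0.69, Lum drops under 1 with median centring, and Dcn spreads from -0.29 to 0.77.

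Many genes of the family sit beside each other in the genome. By gene order in the RefSeq table, Optc, Prelp and Fmod are neighbours on chromosome 1, Dcn, Lum, Kera and Epyc on chromosome 10, and Ecm2, Aspn, Omd and Ogn on chromosome 13, while Bgn is on chromosome X and Chad on chromosome 11. Adjoining genes did not all share a direction. On chromosome 1 Prelp (0.54 ± 0.03) and Fmod (-0.32 ± 0.10) adjoin each other and lay on opposite sides. On chromosome 13 Aspn stood at 0.25 ± 0.06 next to Omd at -0.22 ± 0.04 and Ogn at -0.16 ± 0.11, and Ecm2, a leucine-rich matrix protein outside the 10, at -0.07 ± 0.05. On chromosome 10 the 2 called members, Lum and Epyc, flank Kera, the keratan sulfate proteoglycan of the cornea. Kera read 64.6 and 70.0 in the arch pool and 68.9 and 66.6 in the thoracic pool, just above the negative controls, so a difference in it would hardly be detectable.

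The bases upstream of Prelp and Fmod, and of Aspn, Omd and Ogn, are shown because adjoining members lay on opposite sides there (Prelp and Fmod, Aspn and Omd) or on the same side (Omd and Ogn), with capitals as above. Prelp held 1 match to ACAAT and 1 to CAGAC, Fmod 2 to CAGAC, Aspn 2 to TATAAA and 1 to ACAAT, Omd 1 to ACAAT, and Ogn 2 to TATAAA, which overlap on opposite strands.
Prelp (chr1:133921402-133921651, minus strand): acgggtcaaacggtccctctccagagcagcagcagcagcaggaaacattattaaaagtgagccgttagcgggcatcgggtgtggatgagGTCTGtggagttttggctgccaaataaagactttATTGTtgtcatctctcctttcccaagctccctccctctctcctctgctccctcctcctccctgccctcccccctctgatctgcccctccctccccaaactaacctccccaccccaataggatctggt
Fmod (chr1:134037004-134037253, plus strand): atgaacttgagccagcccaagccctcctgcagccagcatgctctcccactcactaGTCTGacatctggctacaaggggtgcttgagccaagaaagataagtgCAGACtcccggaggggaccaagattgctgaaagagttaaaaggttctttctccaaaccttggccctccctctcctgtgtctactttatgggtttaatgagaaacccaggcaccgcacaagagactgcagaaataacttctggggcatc
Aspn (chr13:49544193-49544442, plus strand): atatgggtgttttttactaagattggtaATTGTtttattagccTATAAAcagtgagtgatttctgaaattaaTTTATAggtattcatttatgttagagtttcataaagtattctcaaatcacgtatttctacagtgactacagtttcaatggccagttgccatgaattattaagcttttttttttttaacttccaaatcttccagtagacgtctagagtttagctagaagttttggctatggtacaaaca
Omd (chr13:49582212-49582461, plus strand): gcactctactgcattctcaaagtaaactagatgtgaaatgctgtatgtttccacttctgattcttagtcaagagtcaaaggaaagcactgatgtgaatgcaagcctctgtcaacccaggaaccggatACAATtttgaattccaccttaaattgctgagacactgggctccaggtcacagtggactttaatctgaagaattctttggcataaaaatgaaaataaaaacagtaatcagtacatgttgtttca
Ogn (chr13:49607765-49608014, plus strand): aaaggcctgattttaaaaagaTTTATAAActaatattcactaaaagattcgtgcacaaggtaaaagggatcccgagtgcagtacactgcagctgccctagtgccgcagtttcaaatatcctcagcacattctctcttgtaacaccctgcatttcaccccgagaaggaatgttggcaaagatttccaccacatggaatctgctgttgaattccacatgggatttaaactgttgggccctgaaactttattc

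**Figure D4:**
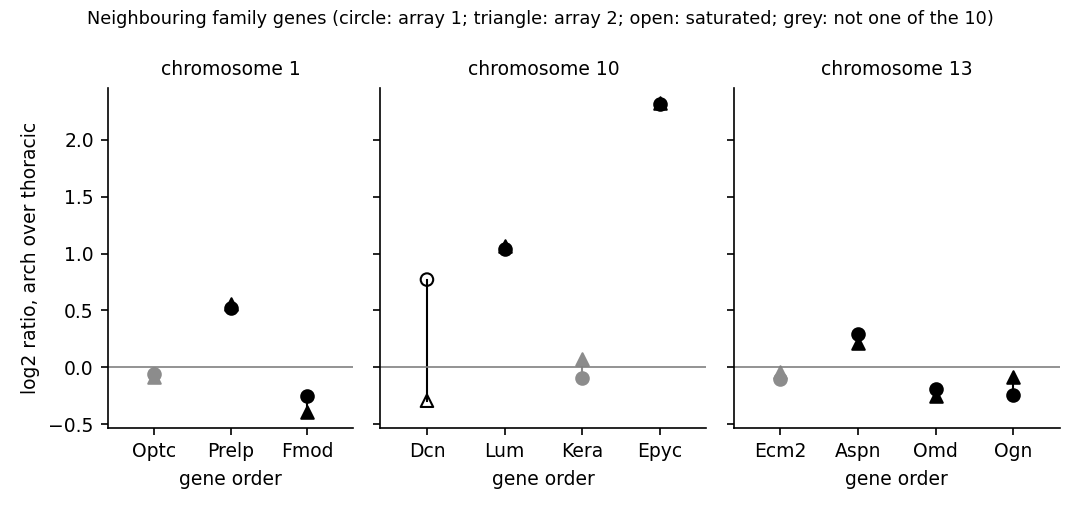
Log2 ratio of arch over thoracic (vertical axis, shared) for family genes in their order on chromosomes 1, 10 and 13 (horizontal axis, order and not distance), with circles for array 1, triangles for array 2, open symbols for the saturated Dcn probe and grey for genes outside the 10. Prelp and Fmod lie on opposite sides of 0 next to each other, and Lum and Epyc lie above 1 on either side of Kera near 0.

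The rest of the family gave no call. Of 8 other leucine-rich proteoglycan genes listed 7 could be compared, and 0 passed in either direction. Their log2 ratios ran from -0.11 for Tsku to 0.18 for Chadl, with a median of -0.01, and included Optc (-0.07 ± 0.02), Nyx (0.01 ± 0.06) and Podn (-0.01 ± 0.01).

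No enzyme that builds the sugar chains was called. Of 28 genes for chondroitin and dermatan sulfate compared, 0 passed in either direction, 1 reached 1.5-fold on each array on the thoracic side, 12 lay above 0 and the median was -0.02. That 1 gene was Ust, which adds sulfate to uronic acid in these chains, at -0.61 ± 0.02. Uxs1, which makes the UDP-xylose that starts each chain, stood at -0.40 ± 0.06, Chst15 at -0.27 ± 0.01 and Dse, the epimerase that turns chondroitin into dermatan sulfate, at 0.24 ± 0.02. Of 9 genes for keratan sulfate and tyrosine sulfation 0 passed, with a median of 0.03 and Chst2, a sulfotransferase, highest at 0.44 ± 0.06. Chst2 was dim, at 122 and 124 in the arch pool and 92.1 and 88.7 in the thoracic pool. In the deposited log ratios it stood at 0.89, so the size of its difference depends on the processing.

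Of 22 matrix proteins that bind this family 0 were called on the arch side and 1 on the thoracic side. Their median was 0.21, and 77.3% (17) lay above 0, beside 47.3% of all genes; this difference was not tested. The cartilage matrix protein Comp stood at 0.71 ± 0.07, fibrillin (Fbn1) at 0.62 ± 0.19 and elastin (Eln) at 0.46 ± 0.17. The fibrillar collagens, onto which these proteoglycans bind, gave 0.10 for Col1a1, 0.35 for Col1a2 and 0.29 for Col3a1, whose probe was saturated. Tnc, tenascin C, was the 1 gene called higher in the thoracic pool (-1.19 ± 0.14), while another probe for it gave -0.08.

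Growth factors and receptors reported to bind the family had a median of 0.17 over 33 genes, with 24 above 0 (72.7%). Kdr, through which endothelial cells sense VEGF, passed (1.24 ± 0.04), and the endocytic receptor Lrp1 (0.83 ± 0.03) and the matricellular gene Ccn4 (0.62 ± 0.03) did not. Tgfb1 stood at 0.37 ± 0.06 and Tgfb2 at 0.32, while the Toll-like receptors Tlr2 and Tlr4 stood at 0.24 and 0.00. Tgfb1 was dim (134 and 131 in the arch pool against 100.4 and 104.4 in the thoracic pool), and its deposited log2 ratio was 0.72.

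Of 17 proteases and helpers known to cut these proteins or their propeptides, 2 were higher in the arch pool, the macrophage elastase Mmp12 (1.52 ± 0.06) and cathepsin S, Ctss (1.18 ± 0.09). With median centring Ctss lay just under the limit, with 0.68 and 1.32 on the arrays, leaving 1 call. The aggrecanase Adamts5 stood at 0.72 ± 0.04, Mmp2 at 0.64 ± 0.10 and Bmp1, which removes the propeptide of biglycan, at 0.15. Cathepsin K, Ctsk, stood at -0.40 ± 0.03. The 17 had a median of 0.14.

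Proteoglycans of other families went both ways, with a median of 0.03 over 27 genes. Prg4, lubricin, was higher in the arch pool (1.19 ± 0.05) and Esm1, endocan, in the thoracic pool (-1.88 ± 0.06). Vcan, versican, the large chondroitin sulfate proteoglycan of the intima, stood at -0.93 ± 0.06, with a further probe at -0.18, opposite in sign to Bgn and Lum, and passed the rule with no offset (-1.08) and in the deposited ratios (-1.10). Gpc3 stood at -0.68 ± 0.14.

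**Figure D5:**
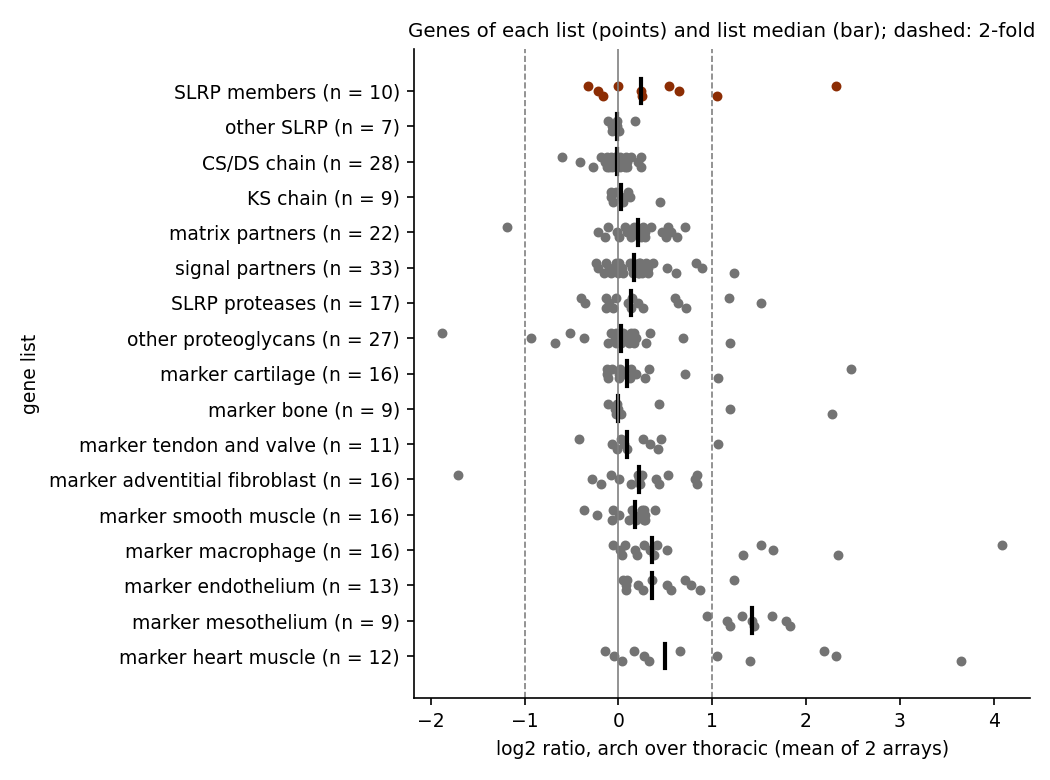
Mean log2 ratio of arch over thoracic over both arrays (horizontal axis) for each gene of each list (points, vertical axis by list) with the list median as a bar and dashed lines at 2-fold; saturated probes are included. The 10 members spread from -0.32 to 2.32, wider than the sugar chain enzymes (-0.61 to 0.44), and the mesothelial markers have the highest median, 1.42.

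Markers of cells that could carry these transcripts also differed between the pools, and their part in the results above was not tested. The pools held smooth muscle RNA: all 16 contractile genes listed were compared and 0 passed, with a median of 0.18, 3 of them (Acta2, Tagln and Myl9) being saturated and Myh11, smooth muscle myosin, at 0.15 ± 0.04. Of 16 adventitial fibroblast markers 0 were called on the arch side, with a median of 0.22 and Lama2 and Pdgfra both at 0.84. Another probe gave 0.83 for Lama2 but 0.12 for Pdgfra. Fbln7 was called on the thoracic side (-1.71 ± 0.02). Their summed signal was 194935 in the arch pool against 151844 in the thoracic pool on array 1, and 164721 against 176992 on array 2. It holds 1 saturated probe, that of Gsn, and the arrays went opposite ways, so the sum does not measure the difference between pools.

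Beside Epyc, 2 of 16 cartilage markers were higher in the arch pool, Cytl1, a cytokine-like protein of cartilage (2.48 ± 0.06), and Sox9, which directs chondrocyte formation (1.06 ± 0.03, other probes from 0.02 to 0.84). Over the 16 the median was 0.10, and their summed signal was 24722 to 27109 against 19195 to 19571. Most of that sum was Col2a1 (18494 and 20865 against 15951 and 16284), so it says little of the other markers. The defining cartilage genes Col2a1 and Acan stood at 0.29 ± 0.10 and 0.14 ± 0.01, and another Col2a1 probe gave 0.08. Acan was dim (161 to 172 in the arch pool), Hapln1 (70.1 to 71.5) and Col9a1 (72.0 to 74.7) lay just above the negative controls, and Ucma was not well above background in the thoracic pool. Of 9 bone and mineral markers 2 passed, Spp1 (2.27 ± 0.02) and Alpl (1.19 ± 0.03), with a median of 0.00 and summed signals of 23738 to 23949 against 6716 to 6886. Most of the bone sum was Spp1 (21164 and 20939 against 4427 and 4274). Of 11 tendon and valve markers only Sox9 passed, Scx, a tendon transcription factor, stood at 0.34 ± 0.02, the median was 0.09 and the summed signals were 23045 to 23554 against 21375 to 21435. Most of the tendon and valve sum was Postn (17398 and 18205 against 17043 and 17132).

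Other cell types differed more. All 9 mesothelial markers reached 1.5-fold on each array, 8 passed on the arch side, their median was 1.42, and their summed signal was 8997 to 9424 against 3362 to 3447. Of 16 macrophage markers 5 passed on the arch side (median 0.36, led by Cd5l at 4.09 ± 0.13), with summed signals of 88625 to 119336 against 65633 to 76107. Most of the macrophage sum was 1 saturated probe, that of Lyz2, so the sum does not measure the difference between pools. Of 12 heart muscle markers 5 passed (median 0.49, led by Myl7 at 3.65 ± 0.12), with summed signals of 28500 to 31223 against 21306 to 23237. Most of the heart muscle sum was Actc1 (21183 and 24040 against 21108 and 19111), which was not called. Of 13 endothelial markers, which the detergent should have reduced, all could be compared and lay above 0, 1 passed (Kdr), the median was 0.36 and the summed signals were 3306 to 3384 against 2244 to 2288.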

How the data were processed

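Spot intensity in both dyes was deposited as scanner output of Feature Extraction, version 8.1.1.1 per the file headers (the submitters' processing notes name 9.1.1.1). The deposited log ratio is log10 of red over green processed signal, and the deposited table of the series holds log10 ratios turned to arch over thoracic (correlation with the scanner values 1.00 on both arrays, column medians 0), from which 35 and 38 of 41174 features differed by over 0.001. With limma 3.58.1 in R 4.3.3, mean signals were background-corrected (normexp, offset 50), loess-normalised with control spots at weight 0, cleared of outlier spots (8 and 5), averaged per probe, turned to arch over thoracic and averaged over both arrays. Pool signals were also scaled between arrays (Aquantile). The filter on dim probes (well above background in a pool on both arrays) kept 32176 of 41174, and the brightest stood for its gene. Names came from a RefSeq table of GRCm38.p6, through the accession for 21445 probes, the current symbol for 5431 and an older symbol held by 1 gene for 4636, while 9662 kept theirs as deposited. No source used here names a genome build for the probes.

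Gene spots well above background made up 76.5% to 82.6% per pool and array, and the number of arrays limits the precision. Each gene has 1 ratio per array and 1 replicate per pool, so differences were called by size and list counts are set beside those of all genes. Genes named from the 16 lists are those past the rule and up to 4 of the largest per list, with a few further ones named for their role after their values were seen. One gene that the rule names is not reported here. The members and lists were chosen with earlier results of these data known. The 9 alternatives cover the offset, background, deposited ratio, normalisation, dim-probe filter, choice of probe, saturated probes and each array left out. The steps were tested on simulated arrays. Protein sequences were not used here, so the sequence description rests on promoters.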

Additional observations from a re-analysis of the deposited data

How the results depend on the processing

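Leaving out an array cannot move a mean of 2 arrays by more than their SD, and other alternatives leave most members untouched; of the 43 member values that an alternative could alter, 13 moved by more than that SD, 6 of them with median centring. The SD of the saturated Dcn is too wide to be a yardstick. Of 144 list counts 8 moved by over 1.5 times. Over all genes 108 were called on the arch side and 33 on the thoracic side. These counts were 196 and 66 with no offset and 232 and 77 in the deposited log ratios, which differ in background and dye correction as well; the cause was not tested. With median centring in place of loess, 1 member in place of 2 was called higher in the arch pool (Epyc alone, Lum being at 0.84), and 1 in place of 3 reached 1.5-fold on each array; the cause was not tested. Leaving out either array kept 2 members called on the arch side and 0 on the other; on array 1 alone 4 reached 1.5-fold, the saturated Dcn included. The members' median ran from 0.09 with median centring to 0.41 on array 1 alone, 0.10 on array 2 alone, with the saturated Dcn probe taking part. Sox9 fell under the rule without background subtraction or with the median over probes, so the tendon and valve list then had 0 calls, as Tnc did for the matrix list with the median over probes. With that median Mpeg1 (0.84) also fell under it, and without background subtraction Upk1b (0.95) and Myl4 (0.99). The endothelial list had 2 calls with no offset (Vwf added) and 3 in the deposited ratios (Vwf and Ptprb added). The median of all genes stayed within 0.02 of 0. Precision is limited by signal over background for Kera, Acan, Optc, Nyx, Podn, Chst2, Tgfb1 and the second Dcn and Prelp probes. Saturation limits it for Dcn, and 1 pool per segment limits it throughout.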
